A study of Danio rerio with 6 samples.

Results

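The subject of this report is a set of 10 zebrafish genes whose transcripts are known from germ cells or from the egg, of 8793 genes named on the array. The germ cell genes were ddx4, nanos3, dnd1, dazl, piwil1 and tdrd7a, and the maternal egg genes were zar1, npm2b, bmb and h1m. Members were the probe sets whose only gene symbol in the platform annotation was one of these 10, and all 10 symbols were found, on 12 probe sets. The genes were selected on their symbols with the measured leflunomide minus DMSO differences already known, so these differences are given as a description of the members, with no test of their own.

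RNA was measured on 6 Affymetrix arrays of zebrafish embryos of the Tu strain. In 3 samples the embryos had been kept in leflunomide at 6.5 uM, and in 3 in DMSO, its solvent, from 50% epiboly, a stage of gastrulation, to an age of 24 hours. Leflunomide, used against rheumatoid arthritis, blocks dihydroorotate dehydrogenase in the synthesis of pyrimidines. The labels do not say how many embryos went into a sample or whether replicates are separate clutches. Errors and p-values therefore cover only how these samples vary, and that variation may be technical; the small number of arrays limits the precision. The comparison asks what leflunomide changed, here for germ cell genes against egg genes.

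The egg is loaded with maternal messenger RNA that directs the earliest divisions, and most of it is cleared once the embryo's own genome becomes active. In zebrafish a part of this maternal RNA lies in the germ plasm, a cytoplasm rich in RNA-binding proteins. The few cells that inherit the germ plasm become the primordial germ cells. Germ plasm transcripts such as nanos3 and tdrd7a are cleared from the other cells of the embryo and protected in the germ cells, and by the sampled stage the primordial germ cells have reached the region of the future gonad.

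The deposited values are log2 signals set relative to the median of the 6 arrays, so every value below is a distance from that median and no absolute level can be read. A coarse level, recovered from the rounding of the numbers, was at least 4 on the log2 scale for 8 of the 12 member probe sets, covering 7 of the 10 genes. Those 8 were tested among 12374 probe sets of that level. The probe sets of ddx4, piwil1 and tdrd7a were below it, so these germ cell genes gave a signal near the bottom of the scale. In RNA from whole embryos, fewer cells of a type and less RNA per cell cannot be told apart.

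The egg genes bmb and npm2b were higher after leflunomide, 3.18-fold and 2.05-fold. Values of zar1 were higher on every leflunomide array by a small amount, and those of h1m overlapped between the groups. The 6 germ cell genes did not separate the groups. Of their 8 probe sets, 7 had a higher mean after leflunomide, against 55.8% of all tested probe sets. Of the 8 tested member probe sets, 2 were called higher by limma at an adjusted p under 0.05 and 0 lower. Among all tested probe sets 9.91% were called higher and 11.0% lower, and no conclusion is drawn from the members' share because the same comparison had been seen when they were chosen.

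Among the egg genes, bmb (brambleberry) encodes a protein needed in the zebrafish zygote for nuclear envelopes to fuse around the chromosomes. Its probe set had log2 values of -0.67, -0.46 and -1.08 on DMSO arrays 1 to 3. On leflunomide arrays 1 to 3 the values were 0.46, 1.15 and 1.18. The groups lay apart, with array 1 the lowest after leflunomide. The difference was 1.67 on the log2 scale (SE 0.23, 95% interval 1.12 to 2.21, n = 3 and 3), and leaving out any 1 array kept it between 1.49 and 1.90, past the threshold in all 6 such fits.

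The gene npm2b encodes a nucleoplasmin, an egg protein that stores histones and helps to remodel chromatin after fertilization. Its log2 values were -0.41, -0.47 and -0.57 on DMSO arrays 1 to 3 and 0.41, 0.64 and 0.61 on leflunomide arrays 1 to 3. Replicates lay close together, with an SD of 0.077 in DMSO and 0.122 in leflunomide, and the gap between the groups was wide against that spread. The difference was 1.04 (SE 0.11, 95% interval 0.79 to 1.29). It stayed between 0.99 and 1.11 without any 1 array and passed in all 6 such fits.

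The gene zar1 encodes an RNA-binding protein of the oocyte that is needed around the start of embryonic development. Its values were -0.06, -0.16 and -0.10 in DMSO and 0.06, 0.14 and 0.22 in leflunomide, so the groups did not overlap. The difference was 0.25 (SE 0.10, 95% interval 0.02 to 0.47), and the call was not made once p-values were adjusted over all tested probe sets. Its replicate spread was among the smallest measured: only 5.6% of tested probe sets had a smaller pooled SD.

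The linker histone gene h1m, whose product packs chromatin in the egg and early embryo before somatic linker histones take over, had values of -0.21, -0.44 and 0.03 in DMSO. In leflunomide they were 0.14, -0.03 and 0.17. The lowest leflunomide value fell below the highest DMSO value. The difference was 0.30 (SE 0.14, 95% interval -0.03 to 0.62) and was not called. The leflunomide arrays lay wholly above the DMSO arrays for 3 of the 4 egg probe sets, a separation seen in 22.6% of all tested probe sets.

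**Figure D1:**
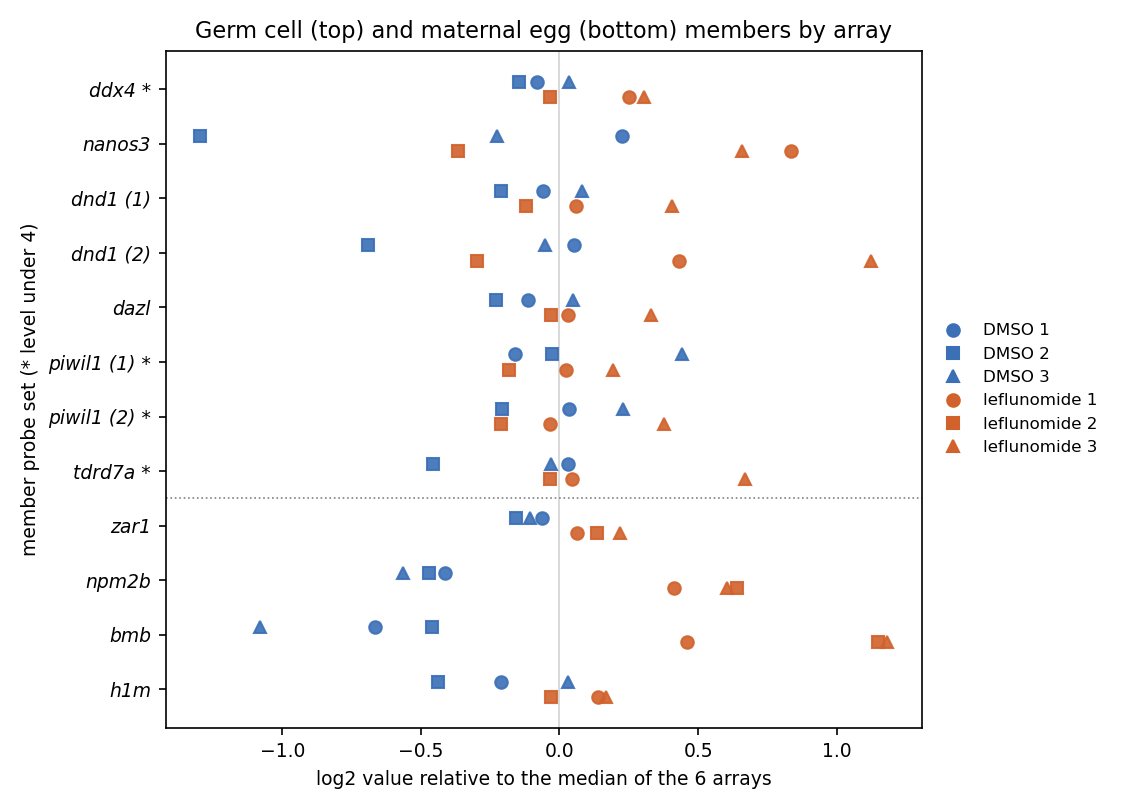
Log2 value of each member probe set on each array (horizontal axis, relative to the median of the 6 arrays), with DMSO in blue, leflunomide in orange and the replicate number as the marker shape; an asterisk marks a level under 4. The values of bmb, npm2b and zar1 separate by group, whereas in the germ cell rows DMSO 2 and leflunomide 2 lie to the left and leflunomide 3 mostly to the right.

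Among the germ cell genes, nanos3 had the largest difference and the widest spread. It encodes an RNA-binding repressor of translation that keeps primordial germ cells alive. Its values were 0.22, -1.30 and -0.22 on DMSO arrays 1 to 3 and 0.84, -0.37 and 0.66 on leflunomide arrays 1 to 3. DMSO array 2 stood far below the rest, and leflunomide array 2 lay below DMSO arrays 1 and 3. The difference was 0.81 (SE 0.44, 95% interval -0.21 to 1.82) and was not called. It was 0.38 without DMSO array 2 and 1.18 without leflunomide array 2, the extremes of the 6 fits without 1 array, of which 0 called it.

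The gene dnd1 (dead end) encodes an RNA-binding protein that shields germ cell transcripts from microRNA-driven decay in zebrafish and is required for the migration and survival of these cells. At its probe set with the suffix _s_at, which marks probes that can also bind other transcripts, the values were 0.05, -0.69 and -0.05 in DMSO and 0.43, -0.30 and 1.12 in leflunomide, a difference of 0.65 (SE 0.35, 95% interval -0.18 to 1.48). At its other probe set they were -0.06, -0.21 and 0.08 in DMSO and 0.06, -0.12 and 0.40 in leflunomide, a difference of 0.18 (SE 0.16, 95% interval -0.19 to 0.54). Both probe sets placed DMSO array 2 lowest and leflunomide array 3 highest, and neither was called. The distance between these 2 arrays was larger at the former.

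The gene dazl, for an RNA-binding protein that promotes translation in germ cells, had values of -0.11, -0.23 and 0.05 in DMSO and 0.03, -0.03 and 0.33 in leflunomide. Its difference was 0.21 (SE 0.13, 95% interval -0.10 to 0.52), and the groups overlapped. The 3 germ cell genes at levels under 4 were fitted with all probe sets and no filter. Their differences had 95% intervals that included 0.

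Of these, ddx4 (vasa), the RNA helicase that is the standard marker of germ plasm, had values of -0.08, -0.15 and 0.03 in DMSO and 0.25, -0.03 and 0.31 in leflunomide. The difference was 0.24 (SE 0.12, 95% interval -0.04 to 0.52). For tdrd7a, a Tudor domain protein of germ granules, the values were 0.03, -0.45 and -0.03 in DMSO and 0.05, -0.04 and 0.67 in leflunomide, a difference of 0.38 (SE 0.21, 95% interval -0.12 to 0.88), with DMSO array 2 lowest and leflunomide array 3 highest. The gene piwil1, for a Piwi protein that binds small RNAs and silences transposons, had the smallest differences of the germ cell genes. They were -0.07 (SE 0.17, 95% interval -0.48 to 0.33) and 0.03 (SE 0.18, 95% interval -0.39 to 0.44) at its 2 probe sets. Intervals of this width leave room for changes of either sign.

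**Figure D2:**
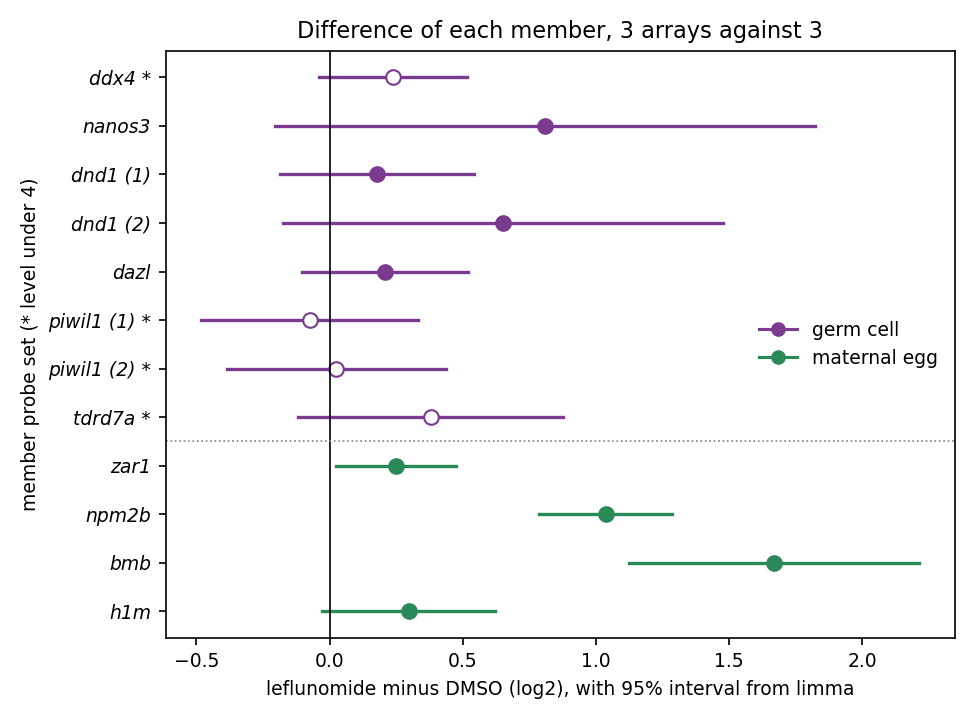
Difference between leflunomide and DMSO (log2, horizontal axis) for each member probe set, with the 95% interval of the limma fit on 3 arrays against 3; open circles and asterisks mark levels under 4. Intervals of all 8 germ cell probe sets cross 0, and those of zar1, npm2b and bmb do not.

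Most germ cell probe sets had the same arrays at their extremes. Leflunomide array 2 was the lowest leflunomide array for 8 of 8 germ cell probe sets, against 33.6% of all tested probe sets. Leflunomide array 3 was the highest leflunomide array for 7 of 8, against 40.2%, and DMSO array 2 the lowest DMSO array for 7 of 8, against 33.1%. All of these held for 6 of 8, against 6.9% of all tested probe sets. Among the 4 egg probe sets they held together for 1, that of h1m, which has also been described in zebrafish primordial germ cells. The genes share the arrays and 2 of them have 2 probe sets each, so these probe sets are not independent, and the counts are a description. Of the 8 germ cell probe sets, 4 lay below level 4, outside the tested probe sets that gave the shares beside them.

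The median spread within groups was larger for the germ cell than for the egg probe sets, though their ranges overlapped. The pooled SD of replicates had a median of 0.26 over the germ cell probe sets, with a range of 0.14 to 0.72, and of 0.14 over the egg probe sets, with a range of 0.064 to 0.36. The median over all tested probe sets, which leave out the germ cell probe sets under level 4, was 0.16. The largest spreads were those of nanos3 and of dnd1 at the _s_at probe set: 99.1% and 98.1% of tested probe sets had a smaller SD. For the egg gene bmb, with a pooled SD of 0.36, this share was 92.1%. A control measure, the 3' minus 5' difference of the 4 spike-in controls, also differed between these arrays. These controls are added to the sample, so the measure does not show how intact the embryo RNA was. Each control probe set is centred on its own median over the arrays, so this difference is only relative to the other arrays. It was 0.54 to 2.00 on leflunomide array 3, -0.71 to -0.11 on leflunomide array 2 and at most 0.18 on the 5 arrays other than leflunomide 3. On DMSO array 2 it was -0.15 to 0.18. The part of this in the germ cell values was not tested.

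Set against each other, the median of the egg genes separated the groups and that of the germ cell genes did not. The median over the 4 egg genes was -0.31, -0.45 and -0.34 on DMSO arrays 1 to 3 and 0.28, 0.39 and 0.41 on leflunomide arrays 1 to 3. The median over the 6 germ cell genes was -0.03, -0.34 and 0.03 in DMSO and 0.15, -0.12 and 0.49 in leflunomide. Between groups, the egg median differed by 0.72 and the germ cell median by 0.29. The egg genes were not alike: bmb and npm2b differed by 1.67 and 1.04, zar1 and h1m by 0.25 and 0.30. The values of zar1 and h1m lay within the range of the germ cell probe sets, -0.07 to 0.81. The egg median thus does not stand for each of its 4 genes.

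The egg median minus the germ cell median was -0.25 ± 0.13 in DMSO and 0.18 ± 0.30 in leflunomide (SD, n = 3 each). This is a difference of 0.43, against a within-group spread that was wide after leflunomide. On leflunomide array 3 the germ cell median was the higher of the pair, by 0.08. The difference between groups was 0.27 without leflunomide array 2. It was 0.73 with h1m counted among the germ cell genes. The germ cell difference alone fell to 0.18 without DMSO array 2 and to 0.13 without leflunomide array 3, and was 0.44 without leflunomide array 2, while the egg difference stayed between 0.68 and 0.77 without any 1 array.

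**Figure D3:**
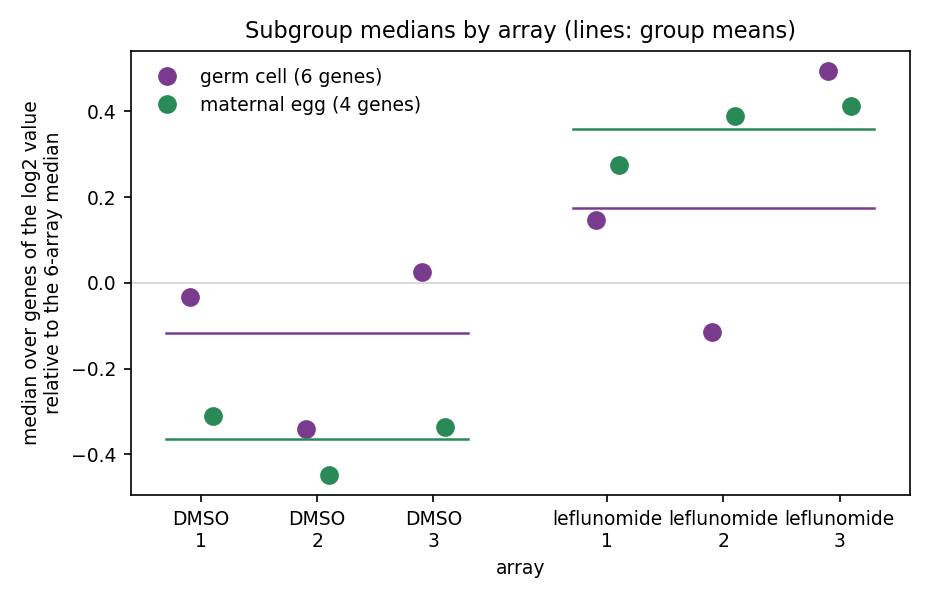
Median over genes of the log2 value (vertical axis, relative to the median of the 6 arrays) on each array, for the 6 germ cell genes and the 4 maternal egg genes; lines are group means. The egg medians lie at -0.45 to -0.31 in DMSO and 0.28 to 0.41 in leflunomide, and the germ cell medians of the groups overlap.

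Other genes of the egg were read from a list of 70 genes, of which 51 were on the array and 38 were tested, the members included. In this list 9 genes were called higher, the members bmb and npm2b among them, and 2 lower. Among all 7700 tested genes, taken at 1 probe set each, 10.6% were called higher and 11.3% lower. The median difference was 0.24 over the list and 0.05 over all tested genes. This list and those read below were chosen with earlier results of these data known, so no conclusion is drawn from their shares. The count of higher genes was 4 without DMSO array 2 and 5 without DMSO array 3, and that of lower genes 1 without DMSO array 1 and 0 without leflunomide array 2 or either of DMSO arrays 2 and 3.

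Genes of the egg coat made up 5 of the 7 higher calls outside the members. The coat, or zona pellucida, is built from Zp proteins that the oocyte makes. The list had 9 zp genes on the array, 5 at a level of at least 4. All 5 of these zp genes were called higher, against 10.6% of all tested genes. They belong to a family of close paralogs whose probe sets can bind related transcripts. Which copy was measured is thus uncertain, and the 5 calls may not be independent. The zp2.6 values were -0.66, -0.79 and -0.90 on DMSO arrays 1 to 3 and 0.66, 1.25 and 1.56 on leflunomide arrays 1 to 3, with a difference of 1.94 (SE 0.22, limma adjusted p = 0.00184). The zp3a.2 values were -0.45, -0.73 and -0.69 in DMSO and 0.45, 1.10 and 1.35 in leflunomide, a difference of 1.59 (SE 0.22, limma adjusted p = 0.00387). Both passed in all 6 fits without 1 array, and both had the lowest leflunomide value on array 1, as bmb did. So did cdx4 and vox, described below and not in the egg list, while tbx16 had its lowest on array 3. This order was thus also seen in some genes outside the egg list. Its share over all tested probe sets is not given here.

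The other called coat genes, named after their values were seen, were zp3a.1 (0.85), zp3b (0.78) and zp3f.1 (0.73). Their calls depended on single arrays: zp3f.1 was lost without DMSO array 2 or 3, zp3b without any 1 of the DMSO arrays, and zp3a.1 in 5 of the 6 fits. At levels under 4, zp2l2, zp2l1, zp3c and zp3d.2, the remaining zp genes of the list, had differences of 0.14, 0.10, 0.00 and -0.25 and were also named after their values were seen.

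Outside the members and the coat genes, 28 egg list genes were tested. Of these, 2 were called higher and 2 lower, against 10.6% and 11.3% of all tested genes. These 4 called genes are named after their values were seen. The higher ones were rnf41 (0.63), which encodes a ubiquitin ligase, and ybx1 (0.46), for an RNA-binding protein that masks maternal messages, and the lower ones macf1a (-0.58), a linker of the cytoskeleton that shapes the zebrafish oocyte, and grip2a (-0.46), whose RNA sits at the vegetal pole of the zebrafish egg. Each of these calls was lost in at least 2 of the fits without 1 array. That of ybx1 was lost in 5 of 6 and also with array medians or 75th percentiles aligned, and its other tested probe set had 0.17 (SE 0.10), not called. Genes of oocyte maturation and egg signalling that were not called included mos (0.39, SE 0.15), the kinase that holds the egg in meiosis. Another was gdf3 (0.56, SE 0.22), a maternal ligand of the Tgf-beta family. Both were named after their values were seen.

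In a germ cell list of 48 genes, 29 were on the array and 17 were tested, with 2 called higher and 3 lower, all outside the members. These calls were 11.8% and 17.6% of the tested list genes, against 10.6% and 11.3% of all tested genes. The RNA came from whole embryos, and the list includes genes of somatic cells such as cxcl12a. These shares are therefore not a reading of germ cells alone. The median difference was 0.12. The lower calls numbered 0 without DMSO array 1 and 1 without DMSO array 3 or either of leflunomide arrays 2 and 3. The higher calls numbered 1 without leflunomide array 2 or either of DMSO arrays 1 and 2.

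The gene cxcl12a, for the chemokine that somatic cells lay down to guide migrating germ cells, had a difference of 0.97 (SE 0.09, limma adjusted p = 0.00117) at one probe set and of -0.08 (SE 0.13) at the other, so its probe sets disagreed. For cxcr4b, the receptor of this chemokine on germ cells, the difference was 0.12 (SE 0.12) and was not called. The Tudor domain gene snd1 had 0.89 (SE 0.20, limma adjusted p = 0.0217) at one probe set and 0.07 and -0.06 at others. The Tudor domain gene tdrd3 fell by 0.80 (SE 0.16, limma adjusted p = 0.0132) at one probe set and had 0.06 (SE 0.13) at another, which lay under level 4. The gene celf1, for an RNA-binding protein, fell by 0.46 (SE 0.12, limma adjusted p = 0.034) at one probe set and had -0.25 (SE 0.13), not called, at the other. The fifth, nanos1, a relative of nanos3 named here after its value was seen, fell by 1.00 (SE 0.26, limma adjusted p = 0.0343). Of the 6 fits without 1 array, 6 called cxcl12a, 5 tdrd3, 3 snd1, and 1 each celf1 and nanos1. The calls of celf1 and nanos1 were also lost with a trended, robust variance. The following 2 genes and cxcr4b were named after their values were seen. The Piwi gene piwil2 had 0.14 (SE 0.18) and was not called, and buc, the organiser of the germ plasm, had 0.14 (SE 0.10) at a level under 4.

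**Figure D4:**
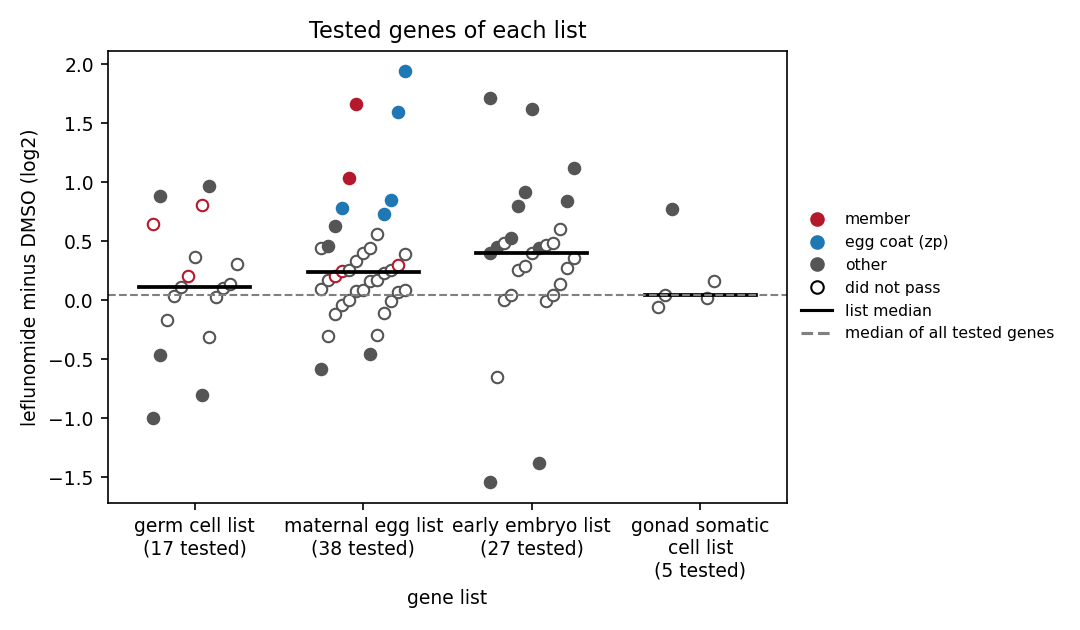
Difference between leflunomide and DMSO (log2, vertical axis) of each tested gene of 4 lists, 1 probe set a gene; filled points passed limma at an adjusted p under 0.05, red marks members and blue egg coat genes, black lines are list medians and the dashed line is the median of all tested genes (0.05). In the maternal egg list the highest points are the zp genes and the members bmb and npm2b; both of these lists have calls in either direction.

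Genes active in the blastula and gastrula, some of them also genes of the tail bud, were read beside the maternal ones. Of 43 such genes, 34 were on the array, 7 of them at a level under 4. The other 27 were tested, with 10 called higher and 2 lower and a median difference of 0.40. These calls were 37.0% and 7.41%, against 10.6% and 11.3% of all tested genes. With tail bud genes in the list, the counts are not a reading of early stage alone. The transcription factor genes tbx16 and cdx4 of the tail bud rose by 1.71 (SE 0.21, limma adjusted p = 0.00246) and 1.63 (SE 0.21, limma adjusted p = 0.00304). The gene vox, for a ventral repressor of the gastrula, rose by 1.12 (SE 0.19, limma adjusted p = 0.00806), and foxd3 fell by 1.54 (SE 0.15, limma adjusted p = 0.00128). A second tbx16 probe set had 0.87 (SE 0.21, limma adjusted p = 0.0255). The factors pou5f3 and nanog, which the egg supplies to start zygotic transcription and which were named after their values were seen, had 0.40 (SE 0.17) and 0.25 (SE 0.15) and were not called. The higher calls numbered 4 without DMSO array 1 or 2 and 6 without DMSO array 3 or leflunomide array 2, and with 75th percentiles aligned they numbered 6. The lower calls numbered 1 without any 1 of the DMSO arrays.

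Adult ovary carries egg transcripts together with those of somatic gonad cells, and those cells were read from 19 genes. Of the 12 on the array, 7 were at a level under 4, among them cyp19a1a (0.08), the aromatase of follicle cells, amh (-0.12) and star (0.14), all named after their values were seen. Of the 5 tested, 1 was called higher and 0 lower, against 10.6% and 11.3% of all tested genes. The called gene was cyp17a1, for a steroid hydroxylase, with a difference of 0.78 (SE 0.15, limma adjusted p = 0.0135) at a probe set that can bind other transcripts and of 0.36 (SE 0.12) at the other, which lay under 4. The list median was 0.04.

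The genes most like bmb across the 6 arrays, by Euclidean distance between log2 values, were sptan1 (0.54), zp3a.2 (0.55), rps27l (0.58), zp2.6 (0.58) and tp53inp1 (0.61). Of these 5, the egg coat supplied 2. All 5 were picked by nearness to bmb, so a rise like that of bmb follows from the selection. The differences of the other three were 1.66 for sptan1, at a probe set that can bind related transcripts, 1.49 for rps27l and 1.26 for tp53inp1. The genes most like nanos3 lay farther away: rsrp1 (0.72), wls (0.72), slc2a10 (0.73), mfsd1l (0.74) and wdr90 (0.76), none of them called and none a germ cell list gene. Each of these 5 had its lowest value on DMSO array 2, as nanos3 did. They were picked by nearness to nanos3 on these arrays, so this shared low value follows from the selection.

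Over all tested probe sets, 1226 were called higher and 1360 lower. These counts moved with single arrays: they were 537 and 758 without DMSO array 1, 524 and 720 without DMSO array 2, 419 and 707 without DMSO array 3, and 626 and 833 without leflunomide array 2.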

How the data were processed

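Trizol RNA (per the labels' protocols) of 6 samples was hybridised to Affymetrix zebrafish arrays, and sample titles gave the group and replicate number. The deposited values are log2 GCRMA values, according to the submitters' processing notes, which name no version. Every probe set is centred on its median over the 6 arrays (within 5e-07), a step that no source used here states, and the log base is taken as 2 because GCRMA gives log2 values. Of 15617 probe sets, 115 array controls were left out. A median level was recovered from the step of single-precision rounding, which doubles at 4 and at 8: 3128 probe sets read as 2 to 4, 8558 as 4 to 8 and 3816 as 8 or more. Numbers that by chance all fall on the coarser grid read too high. The 12374 probe sets at 4 or more were tested.

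The platform annotation named 1 gene for 10795 probe sets, several for 135 and none for 4572; of the single-gene identifiers, 10711 were in the RefSeq table of assembly GRCz12tu, which changed 1 symbol. No coordinates were used, and no sequence is printed. For lists, a gene was represented by its probe set of highest recovered level, ties going to the most specific suffix. Differences, leflunomide minus DMSO, came from limma 3.58.1 (lmFit, eBayes; R 4.3.3), two-sided, with Benjamini-Hochberg adjustment over all tested probe sets and a threshold of 0.05. The fit was tested on simulated data. An exact permutation test of 3 arrays against 3 cannot pass this threshold and is not given. Genes named were all members, in each list up to 4 called genes by adjusted p, and the 5 nearest patterns to the member and to the germ cell member with the largest difference; exceptions are marked. The members and lists were chosen with earlier results of these data known. Alternatives covered the filter, scaling, variance model, array weights, a replicate block, each array left out and the value per gene.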

Additional observations from a re-analysis of the deposited data

How the results depend on the processing

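The calls of bmb and npm2b held under every alternative that tested them, from other scaling to each array left out. At a level of at least 8 only bmb and the _s_at probe set of dnd1 were left of the members, and 1, bmb, was called. Restricted to that level, 633 probe sets were higher and 575 lower, and fewer genes were tested. The germ cell list then had 1 higher and 1 lower, the egg list 3 higher and 2 lower, and the early embryo list 1 higher and 0 lower. With a trended, robust variance the germ cell list had 1 lower call and the early embryo list 1. With the mean over probe sets the germ cell list had 1 higher call, and with 75th percentiles aligned the early embryo list had 6. The causes were not tested. With h1m among the germ cell genes the egg minus germ cell difference was 0.7322.

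Without each array in turn, all higher calls ranged from 419 to 1358 and lower calls from 707 to 1439. In the germ cell list higher calls ranged from 1 to 2 and lower from 0 to 2, in the egg list from 4 to 11 and from 0 to 3, and in the early embryo list from 4 to 8 and from 1 to 3.

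Same-numbered arrays did not pair by the rule used: their deviations from the group means correlated at 0.33, 0.19 and 0.07 for numbers 1 to 3, although every array correlated best with its own number, a hint from the data only. With the replicate number as a block, 1225 probe sets were higher and 1283 lower, the egg list had 1 lower call, and 3 members were called, nanos3 in addition (0.81). Its same-numbered differences were 0.61, 0.93 and 0.88. All 3 such differences were positive for 10 of 12 member probe sets, and for 6 of the 8 germ cell probe sets, against 32.7% of tested probe sets. For bmb, npm2b and zar1 this follows from the groups lying apart. The members were chosen with the group differences known, and 4 germ cell probe sets lay below the tested level. No conclusion is drawn from these shares.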
